A study of Mus musculus with 6 samples.

Results

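The receptors for interleukin-3 (IL-3), granulocyte-macrophage colony-stimulating factor (GM-CSF) and interleukin-5 (IL-5) are encoded in the mouse by 5 genes, Csf2rb, Csf2rb2, Il3ra, Csf2ra and Il5ra, which were described here among the 34542 genes of the deposited gene count table. They were taken as a family by symbol, and the family was chosen by the values of Csf2rb2, whose counts had been noted as higher in knockout livers; the difference of Csf2rb2 is therefore given as a description, with no test. Polyadenylated RNA was sequenced from fetal liver cells of C57BL/6J mouse embryos, 5000000 cells per preparation. Of 6 libraries, 3 were wild type (WT replicates 1, 2 and 3) and 3 carried the genotype miR-144/451-/-, a loss of both copies of the locus that encodes the microRNAs miR-144 and miR-451 (KO replicates 4, 5 and 6). Embryonic age, and whether a library came from 1 embryo or a pool, are not stated by the labels. All p-values therefore speak of the variation among these libraries alone, some of which may be technical.

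Each of these receptors pairs a cytokine-specific alpha chain with a beta chain that carries the signal through the kinase JAK2 and the transcription factor STAT5. Il3ra, Csf2ra and Il5ra encode the alpha chains. Csf2rb encodes the common beta chain, used with all of the alpha chains, whereas Csf2rb2, found in the mouse and absent from humans, encodes a second beta chain used for IL-3 alone. The receptors are known from myeloid progenitors, mast cells, basophils, eosinophils, neutrophils and macrophages, and the fetal liver is a blood-forming organ in which red cell precursors prevail.

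Gene counts totalled 24659978 to 44700229 per library, and 16.9% to 23.4% of the counts in exons and introns together fell in introns. The deleted locus was nearly silent in KO, with 29 to 51 counts of Mir144 in WT and 0 to 1 in KO, and 323 to 446 counts of Mir451 in WT and 2 to 4 in KO. Red cell and hepatocyte markers, which define fetal liver, were present in all 6 libraries. Hepatocyte marker levels varied within both groups and peaked in WT replicate 2 and in KO replicate 6. Counts of the receptor genes ran from 20 (Il5ra, KO replicate 4) to 2533 (Csf2rb, KO replicate 5) per library, and all 5 genes passed the filter on low counts.

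Csf2rb and Csf2rb2 lie head to head on chromosome 15, with start sites 20031 bases apart in the annotation of build GRCm38. Csf2rb (ENSMUSG00000071713) spans 78325752 to 78353847 on the plus strand, and Csf2rb2 (ENSMUSG00000071714) spans 78282507 to 78305721 on the minus strand. Il3ra (ENSMUSG00000068758) lies on chromosome 14 from 14346275 to 14356011 (plus strand), Csf2ra (ENSMUSG00000059326) on chromosome 19 from 61223957 to 61228429 (minus strand) and Il5ra (ENSMUSG00000005364) on chromosome 6 from 106710357 to 106749037 (minus strand). The coding sequences of Csf2rb and Csf2rb2 were 95.4% identical over 2629 aligned bases, with 122 mismatches, and the sequences after the stop codon were 91.0% identical over 1581 aligned bases. The longest stretch without a mismatch is shown because a read that falls inside it cannot be assigned to 1 copy. It covers 242 coding bases in exon 14 of Csf2rb2 (chr15:78284630-78284871, minus strand) and exon 15 of Csf2rb (chr15:78348577-78348818, plus strand).
Csf2rb2 and Csf2rb, shared: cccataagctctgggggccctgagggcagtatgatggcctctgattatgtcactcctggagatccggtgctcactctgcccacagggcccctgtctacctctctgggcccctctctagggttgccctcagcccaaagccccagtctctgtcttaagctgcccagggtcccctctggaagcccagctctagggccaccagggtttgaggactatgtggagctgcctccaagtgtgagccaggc
The 90 aligned coding bases with the most mismatches, 16, are shown because reads there can be told apart. They lie in exon 4 of Csf2rb2 (chr15:78294345-78294434, minus strand) and exon 5 of Csf2rb (chr15:78338897-78338986, plus strand), and capitals mark the bases that differ.
Csf2rb2: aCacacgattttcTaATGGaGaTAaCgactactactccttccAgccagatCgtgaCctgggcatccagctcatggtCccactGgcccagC
Csf2rb: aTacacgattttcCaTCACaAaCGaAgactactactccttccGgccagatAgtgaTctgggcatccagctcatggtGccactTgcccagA
Of the 50-base windows of the Csf2rb2 transcript, 19.0% also occur in a Csf2rb transcript, and of the 100-base windows 7.20%. For Il3ra and Csf2ra 0 windows of 50 bases occur in a transcript of another gene, and for Il5ra 1.05% do. Neither the read length nor the handling of reads that fit both copies is given in the sources used here, so each value of Csf2rb or Csf2rb2 below is uncertain as that of a single gene.

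The microRNAs of the deleted locus lower messenger RNAs that carry a match to their seed, bases 2 to 8, shown in capitals because the receptor genes were searched for it.
miR-451a: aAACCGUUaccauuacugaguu
miR-144-3p: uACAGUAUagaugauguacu
miR-144-5p: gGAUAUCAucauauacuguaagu
The sequences are those of RefSeq on GRCm38.p6. The matching sites, AACGGTT for miR-451a, ATACTGT for miR-144-3p and TGATATC for miR-144-5p, were searched in every annotated 3′ untranslated region of the 5 genes. Csf2rb2, in regions of up to 1810 bases, and Csf2rb, in regions of up to 1816 bases, held 0 sites for any of the 3 microRNAs, and so did Il3ra and Il5ra. Csf2ra held 1 site, a match of miR-144-5p on chromosome 19 (chr19:61224767-61224789, minus strand), shown with its flanks and with the match in capitals.
Csf2ra site: tgtcaccgTGATATCacagtcca
Over all 21020 genes with an annotated 3′ untranslated region, 1.75%, 11.9% and 6.13% held a site for miR-451a, miR-144-3p and miR-144-5p in their longest region. No match says only that these letters are not in the regions searched.

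Levels are given in CPM, counts scaled to a common library size after adjustment by TMM, the trimmed mean of M values. Of the beta chain genes, Csf2rb2 measured 13.3, 15.2 and 10.3 CPM in WT replicates 1, 2 and 3 and 44.4, 46.5 and 51.9 CPM in KO replicates 4, 5 and 6. The groups lay far apart, the lowest KO library being 2.92 times the highest WT library. The mean went from 12.9 ± 2.47 to 47.6 ± 3.88 CPM (SD, n = 3 each), which is 3.68-fold and 1.88 on the log2 scale (SE 0.16). Without each library in turn the log2 change ran from 1.74 to 2.01.

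Csf2rb, the common beta chain, differed by a smaller margin. It measured 50.6, 48.0 and 39.0 CPM in WT and 53.6, 60.4 and 55.3 CPM in KO. All KO libraries lay above all WT libraries, by a margin of 1.06-fold between the nearest ones. The log2 change of 0.30 (SE 0.12, 95% interval 0.02 to 0.58) did not pass over all genes (adjusted p = 0.266, edgeR's quasi-likelihood test with Benjamini-Hochberg adjustment, as for every adjusted p here).

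The alpha chain genes did not pass either. Il3ra, the IL-3 alpha chain, measured 3.03, 3.71 and 2.20 CPM in WT and 2.66, 3.51 and 3.05 CPM in KO. The groups overlapped fully, with a log2 change of 0.04 (SE 0.24, 95% interval -0.54 to 0.62, adjusted p = 0.993, edgeR). Csf2ra, the GM-CSF alpha chain, measured 19.1, 19.5 and 14.6 CPM in WT and 14.6, 15.9 and 15.1 CPM in KO. WT replicate 3 was level with the KO libraries, and the log2 change was -0.22 (SE 0.14, 95% interval -0.56 to 0.12, adjusted p = 0.541, edgeR).

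Il5ra, the IL-5 alpha chain of eosinophils and their precursors, was the least abundant. It measured 1.41, 1.28 and 1.16 CPM in WT and 0.426, 0.620 and 1.02 CPM in KO, from 47, 45 and 28 counts and 20, 26 and 42 counts. Every KO library lay below every WT library. The log2 change of -0.91 (SE 0.35, 95% interval -1.74 to -0.07) did not pass (adjusted p = 0.258, edgeR).

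Over the 4 tested receptor genes, Csf2rb, Il3ra, Csf2ra and Il5ra, 0 passed by edgeR, DESeq2 or limma-voom, and 2 had an unadjusted p under 0.05 by edgeR, Csf2rb (0.0387) and Il5ra (0.0370). Over all 15105 tested genes, 3.28% passed and 2500 had an unadjusted p under 0.05 by edgeR. These 2500 are the background for every count of unadjusted p-values from gene counts below. KO libraries lay above WT for 11.8% of all genes, as for Csf2rb, and below WT for 10.9%, as for Il5ra, so a lack of overlap is common in these libraries. In bulk RNA, fewer cells of a type and less RNA per cell cannot be told apart.

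**Figure D1:**
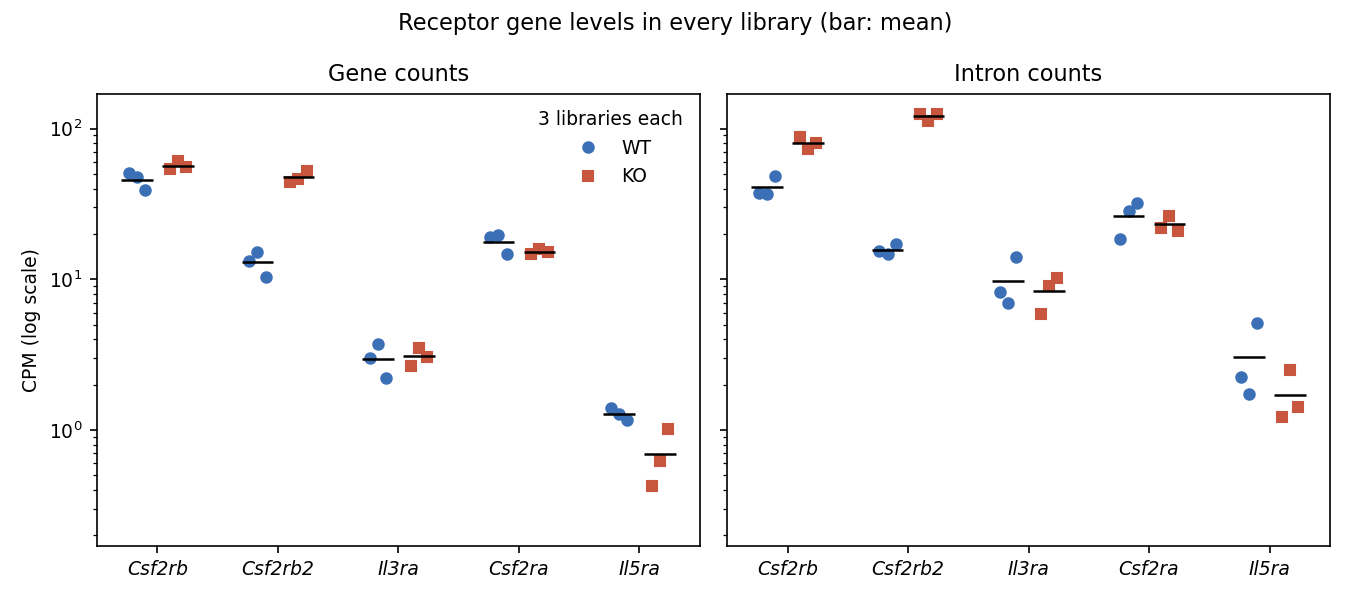
Levels of the 5 receptor genes in each library on a log axis of CPM, from gene counts (left) and intron counts (right), with points for single libraries and a bar for the mean of 3. Csf2rb2 separates by 2.92-fold between the nearest libraries in gene counts and 6.62-fold in intron counts, while Il3ra and Csf2ra overlap in both.

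Per kb of transcript (CPM divided by the length of the transcript with the longest coding sequence, GRCm38 models), the order of levels in WT was Csf2ra (9.59 ± 1.47), Csf2rb (9.36 ± 1.23), Csf2rb2 (2.73 ± 0.521), Il3ra (1.29 ± 0.326) and Il5ra (0.359 ± 0.0343, SD, n = 3 each). Csf2ra and Csf2rb differed by less than their spread. In KO the order was Csf2rb (11.5 ± 0.725), Csf2rb2 (10.05 ± 0.819), Csf2ra (8.24 ± 0.355), Il3ra (1.33 ± 0.183) and Il5ra (0.192 ± 0.0843). On this scale the IL-3-specific beta chain stood well under the common beta chain in WT and close to it in KO. All annotated exons together span 7.28 kb for Csf2rb, 4.74 kb for Csf2rb2 and 2.87 kb for Csf2ra, beside transcripts of 4900, 4740 and 1849 bases. Those lengths would lower Csf2rb and Csf2ra and leave Csf2rb2 as it is. The order of Csf2rb, Csf2rb2 and Csf2ra therefore depends on the length used.

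The counts of both copies were also added. A read moved from one copy to the other leaves this sum as it is, but reads dropped or counted for both copies would change it, which was not tested. The sum was 63.9, 63.2 and 49.3 CPM in WT and 98.0, 107 and 107 CPM in KO, with no overlap. Its mean went from 58.8 ± 8.19 to 104 ± 5.21 CPM (SD, n = 3 each), or 0.82 on the log2 scale (SE 0.12), and the latter ran from 0.71 to 0.89 without each library in turn. Of the added 45.3 CPM, Csf2rb2 gained 34.7 CPM and Csf2rb 10.6 CPM. Since the sum holds Csf2rb2, it too is a description.

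Within the pair, Csf2rb2 took 20.8% (exact 95% binomial interval 19.1% to 22.6%, counting error only, as for all such intervals), 24.1% and 20.9% of gene counts in WT replicates 1, 2 and 3. In KO replicates 4, 5 and 6 it took 45.3% (43.9% to 46.7%), 43.5% and 48.5%. The mean share was 21.9% ± 1.86 in WT and 45.7% ± 2.51 in KO (SD, n = 3 each), 23.8 percentage points apart. In intron counts the shares were 29.2%, 28.6% and 26.1% in WT and 58.5%, 60.6% and 61.0% in KO, 32.1 points apart. The pair went from mostly Csf2rb to near balance in gene counts, and to mostly Csf2rb2 in intron counts.

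**Figure D2:**
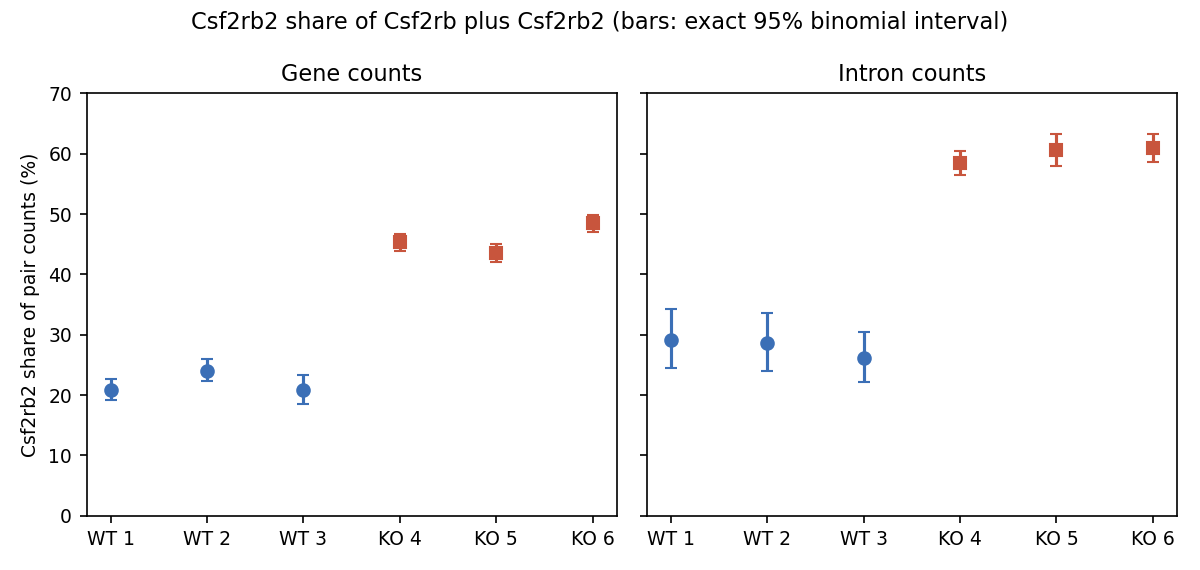
Share of Csf2rb2 in the summed counts of Csf2rb and Csf2rb2 in each library, in percent, from gene counts (left) and intron counts (right), with exact 95% binomial intervals as bars. The WT libraries sit between 20.8% and 24.1% of gene counts and the KO libraries between 43.5% and 48.5%.

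Intron counts stand largely for unspliced RNA, and those of both beta chain genes were higher in KO. Csf2rb2 introns measured 15.4, 14.6 and 17.01 CPM in WT and 125, 113 and 125 CPM in KO, 7.69-fold by the means (15.7 ± 1.21 to 121 ± 6.96 CPM, SD, n = 3 each). The log2 change was 2.94 (SE 0.14), again as a description. No WT library came near a KO library.

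Csf2rb introns rose. They measured 37.4, 36.5 and 48.1 CPM in WT and 88.2, 73.2 and 79.7 CPM in KO, a log2 change of 0.98 (SE 0.16, adjusted p = 0.0485, edgeR). All KO libraries lay above all WT libraries, which held for 9.92% of the 11803 genes tested in introns. The call is narrow by edgeR and by limma-voom (adjusted p = 0.0448), while DESeq2 gave an adjusted p of 1.68e-04. By edgeR its adjusted p was 0.0542 with DESeq2 size factors and 0.550 once WT replicate 2 and KO replicate 6, highest in hepatocyte level, were both left out. With 1 WT library left out, the adjusted p was 0.178 for replicate 1, 0.257 for replicate 2 and 0.0281 for replicate 3. With 1 KO library left out it was 0.221 for replicate 4, 0.190 for replicate 5 and 0.144 for replicate 6, while the log2 change ran from 0.89 to 1.09. The gain of 39.7 CPM in Csf2rb introns was 37.9% of the gain in Csf2rb2 introns, and its gain in gene counts was 30.5% of that of Csf2rb2. How many reads of one copy were counted for the other was not tested, and intron sequences were not compared here.

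The introns of the alpha chain genes did not pass. Il3ra introns measured 8.24, 6.95 and 14.0 CPM in WT and 5.88, 8.98 and 10.2 CPM in KO (log2 change -0.23, adjusted p = 0.941, edgeR). Csf2ra introns measured 18.4, 28.5 and 32.0 CPM in WT and 22.0, 26.2 and 21.0 CPM in KO (-0.19, adjusted p = 0.899, edgeR). Il5ra introns rested on 12 to 36 counts per library and had a log2 change of -0.84 (SE 0.54, adjusted p = 0.666, edgeR). Of the 4 tested receptor genes, Csf2rb was thus the 1 to pass in introns, against 0.72% of all genes tested there.

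The intronic difference was larger than the exonic one for both beta chain genes. In a fit over exon and intron counts of the same libraries, the exonic minus intronic change was -1.05 (SE 0.23) for Csf2rb2, as a description, and -0.68 for Csf2rb (SE 0.24, 95% interval -1.25 to -0.12, unadjusted p = 0.0241, adjusted p = 0.99997, edgeR). For Il3ra (0.25), Csf2ra (-0.05) and Il5ra (-0.23) it was within 1 SE of 0. Over all 11100 genes 0% passed by edgeR, with 352 at an unadjusted p under 0.05, and DESeq2 called 32 higher and 3 lower. Per kb of intron, Csf2rb2 measured 0.849 ± 0.0656 CPM in WT and 6.53 ± 0.377 in KO, and Csf2rb 1.95 ± 0.308 and 3.86 ± 0.362 (SD, n = 3 each). The order of the copies in intron counts per kb (intron lengths of GRCm38 models) was therefore opposite in the 2 genotypes.

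The sequence before the Csf2rb2 start is shown because intron and gene counts of this gene were higher together. It is the 250 bases upstream of the RefSeq start (GRCm38.p6, chr15:78305722-78305971, minus strand), with matches to the searched motifs in capitals.
Csf2rb2 promoter: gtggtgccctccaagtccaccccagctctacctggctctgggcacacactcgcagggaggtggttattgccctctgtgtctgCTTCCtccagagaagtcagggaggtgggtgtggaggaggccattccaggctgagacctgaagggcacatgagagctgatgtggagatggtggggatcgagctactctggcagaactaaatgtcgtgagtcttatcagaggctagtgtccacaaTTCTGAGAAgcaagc
The motifs were searched on both strands. They were TTCNNNGAA (the palindrome bound by STAT factors), AGATAA (a form bound by GATA factors) and GGAAG (bound by ETS factors). Other forms of these sites were not searched, so a count of 0 does not mean that no such site is present. Csf2rb2 held 1 TTCNNNGAA match, TTCTGAGAA, at 15 to 7 bases before the start, 1 GGAAG match and 0 AGATAA matches, with no overlap. Il3ra held 1 GGAAG match, Csf2ra 3 GGAAG matches and Il5ra 1 AGATAA match, and none of these 3 genes held TTCNNNGAA. Of 32851 promoters of this length, 7.02% held TTCNNNGAA, 9.99% AGATAA and 64.1% GGAAG. A match is a description of letters and does not show that a factor binds there. Promoters of 4 of the 5 genes were in the table, and Csf2rb was not.

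The genes around the pair showed no difference of that size. Within 250 kb of either start site, 22 other genes are annotated, 14 have a row in the count table and 9 were tested. Of these, 0 passed by edgeR, DESeq2 or limma-voom, with 0 at an unadjusted p under 0.05 by edgeR, and their log2 changes ran from -0.20 to 0.39 with a median of -0.08. All 9 overlapped between groups. Over all tested genes, KO lay fully above WT for 11.8% and fully below for 10.9%, so overlap is the common case. The nearest tested one, Ncf4, a subunit of the phagocyte NADPH oxidase with its start 60.9 kb away, measured 34.4 ± 7.42 CPM in WT and 32.1 ± 7.08 in KO (SD, n = 3 each).

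**Figure D3:**
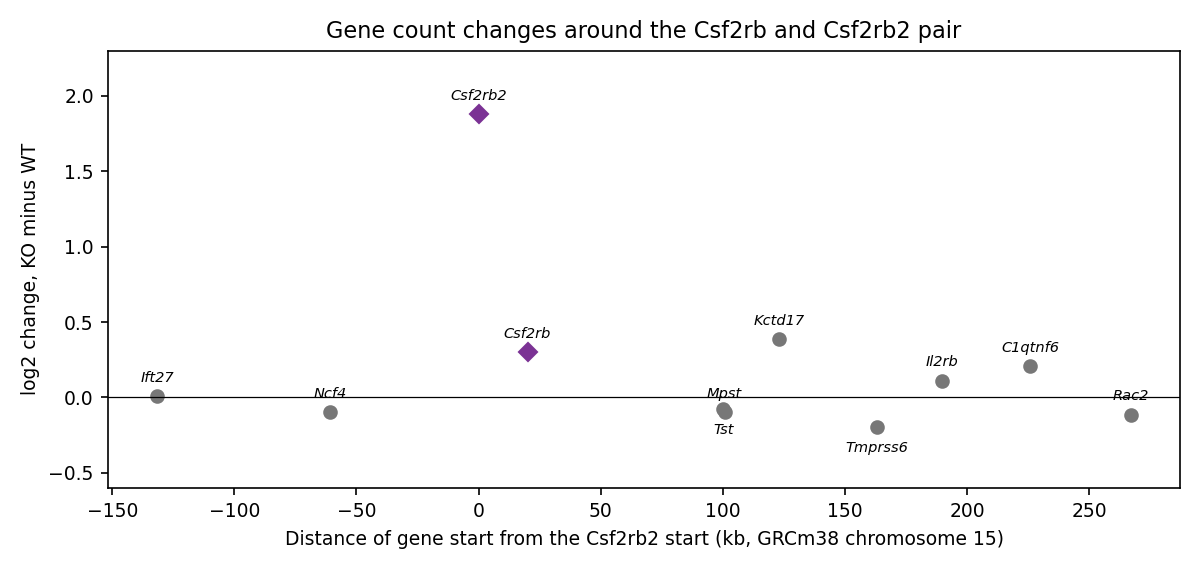
Log2 change in gene counts, KO minus WT, of Csf2rb2, Csf2rb (diamonds) and the 9 tested genes within 250 kb (circles), by distance of their starts from the Csf2rb2 start in kb. Csf2rb2 stands at 1.88 and the neighbours between -0.20 and 0.39.

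Set beside other chains of the class I cytokine receptor family, to which all 5 genes belong, Csf2rb2 had the highest log2 change. Csf2rb2 was chosen for its rise, so this rank is a description. Of 28 other chains 23 were tested and 0 passed by edgeR, DESeq2 or limma-voom, with 1 at an unadjusted p under 0.05 by edgeR. Their median log2 change was -0.05, beside -0.03 over all tested genes, and their changes ran from -0.55 to 0.45. Epor, the erythropoietin receptor and the most abundant of them, measured 282 ± 34.1 CPM in WT and 269 ± 19.0 in KO (SD, n = 3 each). Lifr, the leukemia inhibitory factor receptor, measured 28.3 ± 22.8 and 27.1 ± 16.7 CPM. For Csf3r, the granulocyte colony-stimulating factor receptor, named after its values were seen, every KO library lay below every WT library (log2 change -0.46, adjusted p = 0.212, edgeR). This lack of overlap held for 1 of the 23 chains, beside 10.9% of all genes.

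**Figure D4:**
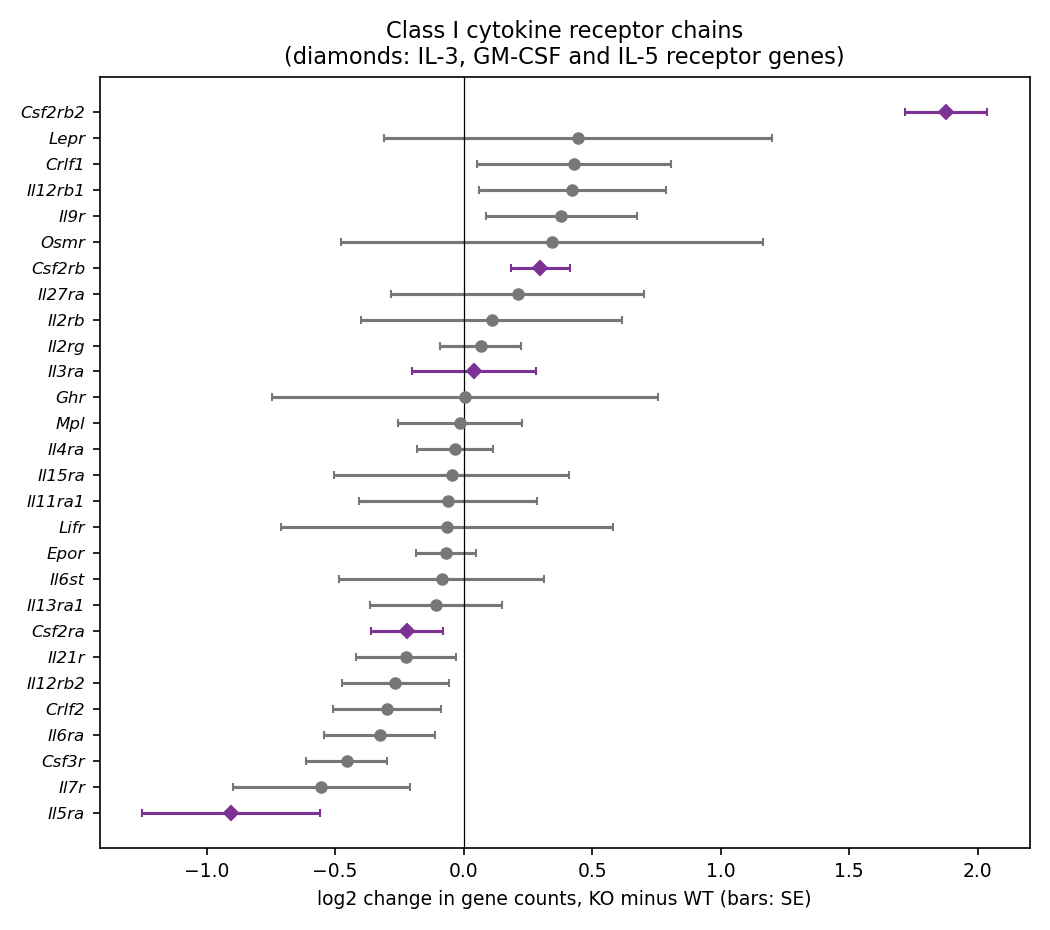
Log2 change in gene counts, KO minus WT, with SE bars, for 23 tested class I receptor chains (circles) and the 5 IL-3, GM-CSF and IL-5 receptor genes (diamonds), sorted by value. Csf2rb2, chosen for its rise, lies apart from the other chains at 1.88, and Il5ra at -0.91 is the lowest.

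The ligands were close to absent. Il3 had 0 counts in all 6 libraries, Csf2 1 and Il5 2, so none could be tested. These cytokines are made mainly by activated T cells and other immune cells.

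Of 23 tested genes of receptor-proximal signalling, 1 rose and 1 fell, with a median log2 change of -0.08, beside 3.28% of all genes called in either direction. DESeq2 called 2 higher and 3 lower, beside 663 higher and 645 lower over all genes. Ywhaz, the adaptor 14-3-3 zeta, which binds the phosphorylated common beta chain in humans, rose from 193 ± 1.32 to 346 ± 12.5 CPM (SD, n = 3 each, log2 change 0.84, adjusted p = 0.00830, edgeR). Pik3r1, the regulatory subunit of PI 3-kinase, measured 221, 205 and 219 CPM in WT and 143 to 145 CPM in KO, and fell by 0.58 on the log2 scale (adjusted p = 0.0160, edgeR). The kinase Jak2 (-0.30) and the transcription factors Stat5a (-0.08) and Stat5b (0.27), chosen for their place in the pathway after their values were seen, did not pass. Without WT replicate 1 or 3 or KO replicate 4 or 5, 0 of the 23 passed in either direction. With WT replicate 2 left out, 3 rose and 3 fell.

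Of 20 tested genes known to be induced through STAT5 and related pathways, 1 rose and 3 fell, with a median of -0.01, beside 3.28% of all genes called in either direction. DESeq2 called 2 higher and 5 lower, beside 663 higher and 645 lower over all genes. Socs3, a feedback inhibitor of cytokine receptors, measured 29.9, 24.2 and 23.6 CPM in WT and 5.05, 6.08 and 6.201 CPM in KO, and fell by 2.16 on the log2 scale (adjusted p = 0.00562, edgeR). Bcl2l1, the survival gene of BCL-XL (-0.79, adjusted p = 0.0385, edgeR), and the kinase gene Pim2 (-0.90, adjusted p = 0.0478, edgeR) fell as well. Spry1, an inhibitor of receptor kinase signalling, rose by 1.52 (adjusted p = 0.0355, edgeR). Cish, a STAT5-induced inhibitor also chosen after its values were seen, measured 16.7, 19.8 and 20.9 CPM in WT and 18.3, 18.7 and 21.7 CPM in KO, with overlapping groups. With KO replicate 5 left out, 0 of the 20 passed. Without WT replicate 1 or 3 or KO replicate 4 or 6, 0 rose and 1 fell. With WT replicate 2 left out, 1 rose and 5 fell.

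Of the markers of the cells that carry these receptors, 0 rose. The summed level of 15 mast cell and basophil markers was 105 to 135 CPM in WT and 61.8 to 74.8 CPM in KO, and each of the 15 had counts in at least 1 library, though Tpsab1, Mcpt1 and Mcpt4, mast cell proteases chosen after their values were seen, were at 0 in some libraries of both groups. Of 10 tested, Il1rl1, the interleukin-33 receptor, fell from 65.6 ± 5.76 to 33.3 ± 3.50 CPM (SD, n = 3 each, log2 change -0.98, adjusted p = 0.0147, edgeR), and lost the call without WT replicate 1 or 3 or KO replicate 4 or 5 (edgeR, adjusted p 0.0622 to 0.0853). The 9 others did not pass, beside 3.28% of all genes called by edgeR in either direction. DESeq2 called 2 lower in all, beside 645 lower over all genes. The median log2 change of the 10 was -0.49, and 9 were below 0. For 3 of them every KO library lay below every WT library, beside 10.9% of all genes. Il1rl1 alone made up 60.0 to 71.5 CPM of the summed level in WT and 30.3 to 37.2 CPM in KO.

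Eosinophil markers summed to 309 to 388 CPM in WT and 195 to 295 CPM in KO. All 8 tested had a log2 change below 0, with a median of -0.53, and for 6 every KO library lay below every WT library, beside 10.9% of all genes. None passed by edgeR, with 5 at an unadjusted p under 0.05, beside 2500 of all 15105 tested genes. DESeq2 called 1 lower, beside 645 over all genes. The tested red cell, neutrophil granule and B lymphoid markers also all had a log2 change below 0. Prg2, the major basic protein of eosinophil granules, measured 183 ± 22.3 CPM in WT and 130 ± 27.8 in KO, and the eosinophil ribonuclease gene Ear1 40.5 ± 4.59 and 26.2 ± 6.996 (SD, n = 3 each). The part of the eosinophil markers in the lower level of Il5ra was not tested.

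Among neutrophil granule markers 0 of 15 passed by edgeR or DESeq2, with 0 at an unadjusted p under 0.05, a median of -0.57 and summed levels of 2602 to 4547 CPM in WT and 1650 to 3487 CPM in KO. The calprotectin subunit gene S100a9 measured 895 ± 301 and 546 ± 278 CPM, and the myeloperoxidase gene Mpo 690 ± 86.1 and 583 ± 70.2 CPM (SD, n = 3 each). Stem and progenitor markers had 0 of 11 called by edgeR or DESeq2, 2 at an unadjusted p under 0.05 and a median of -0.13, with Kit, the stem cell factor receptor, at 111 ± 6.02 and 103 ± 5.95 CPM and Cd34 at 28.2 ± 3.46 and 23.7 ± 1.73 CPM. Of 12 red cell markers 2 fell, the transferrin receptor Tfrc (-0.83, adjusted p = 0.0336, edgeR) and the membrane skeleton gene Epb4.2 (-0.72, adjusted p = 0.0481, edgeR). The summed level of the red cell markers was 22924 to 31610 CPM in WT and 17453 to 20562 CPM in KO. All 12 had a log2 change below 0, with a median of -0.50, and 7 had an unadjusted p under 0.05 by edgeR. For 7 every KO library lay below every WT library, beside 10.9% of all genes. By edgeR 3.28% of all genes passed in either direction. DESeq2 called 7 of the 12 lower, beside 645 lower over all genes. Both edgeR calls held with WT replicate 2 left out, and neither held with any other single library left out or with no filter on low counts (edgeR, adjusted p 0.0599 for Tfrc and 0.0736 for Epb4.2).

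Summed levels of the remaining markers overlapped between groups: macrophage 389 to 968 CPM in WT and 456 to 681 in KO, megakaryocyte 317 to 627 and 320 to 536, B lymphoid 42.5 to 113 and 27.2 to 61.9, endothelial 138 to 398 and 184 to 404, and hepatocyte 9397 to 59695 and 13738 to 48418. None of these 5 lists had a gene called by edgeR or DESeq2, 1 endothelial gene and 0 others had an unadjusted p under 0.05 by edgeR, and the medians were -0.16, -0.04, -0.58, 0.17 and -0.05. The part of cell type make-up in the Csf2rb2 difference was not tested. Without WT replicate 2 and KO replicate 6, the libraries of highest hepatocyte level, the log2 change of Csf2rb2 was 1.97.

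**Figure D5:**
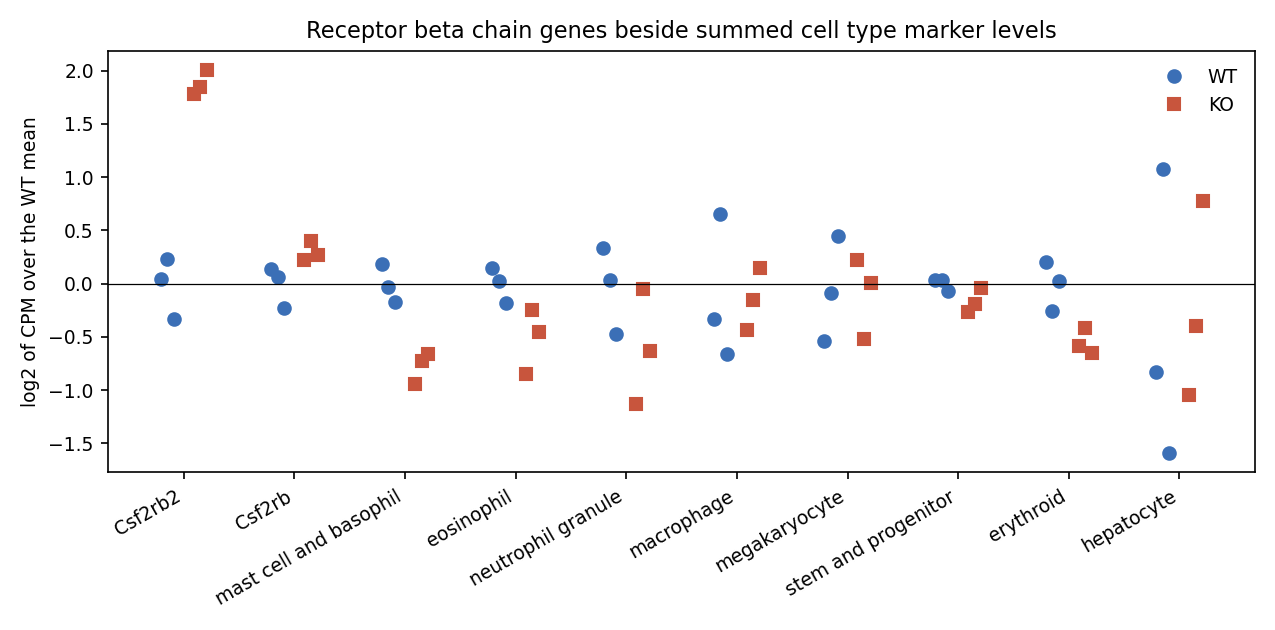
Log2 of the level in each library over the WT mean, for Csf2rb2 and Csf2rb and for the summed CPM of 8 cell type marker lists (circles WT, squares KO). Csf2rb2 is higher in all 3 KO libraries, whereas the mast cell and basophil, eosinophil and erythroid sums are lower in all 3.

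The genes whose log2 CPM followed Csf2rb2 most closely over the 6 libraries were, by Pearson's r, Trappc6a (0.997), Trim44 (0.997), Fbxw11 (0.996), Pdcl (0.995) and Gm10566 (0.995), out of 10542 genes whose mean reached 5 CPM. All 5 were higher in KO, with log2 changes of 0.43 to 0.74, so the likeness rests mainly on the step between genotypes. Fbxw11 encodes a substrate-binding subunit of a ubiquitin ligase and went from 49.4 ± 2.94 to 82.6 ± 2.83 CPM (SD, n = 3 each). Those most like Csf2rb were Nek4 (0.999), Fbxo18 (0.982), Spg21 (0.979), Gm8822 (0.969) and Tmem50a (0.968), with log2 changes of 0.09 to 0.47. Both lists share the libraries and their scaling with the receptor genes and were picked as the highest of many.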

How the data were processed

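RNA of WT and KO fetal liver was analysed from 2 tables of raw counts per gene symbol that the authors deposited, 1 of gene counts and 1 of exon and intron counts; exon counts equal gene counts for all 15543 genes listed there. STAR and HTSeq, without versions, and the builds NCBIM37 and mm10 are named in the submitters' processing notes; neither the strand setting nor the definition of introns is given in the sources used here. The tables list no gene whose symbol starts with Hba, Hbb or mt-, so these globin and mitochondrial genes stand outside the library sizes.

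Counts were tested KO against WT over all genes with edgeR 4.0.16 (R 4.3.3): TMM scaling, filterByExpr (minimum count 10, minimum total 15), quasi-likelihood F test, two-sided, Benjamini-Hochberg threshold 0.05. Exonic against intronic change was the interaction of region with genotype, with a term per sample. Standard errors come from the F statistic. The chi-square per degree of freedom between libraries of a group ran from 16.7 to 157, so each was kept as 1 replicate. Scripts were tested on simulated data. DESeq2 1.42.0, limma-voom (limma 3.58.1), other scaling, no filter and leaving out libraries were alternatives. Sequences came from GENCODE M21 (GRCm38), which may not be the build behind the counts, and RefSeq; the pair was aligned with Biopython 1.88.

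Members and lists were chosen with earlier results of these data known. Named are the members, up to 4 called genes per list or its 2 most abundant, the 5 genes most like Csf2rb2 and Csf2rb, and genes near the pair. Of the macrophage, megakaryocyte, B lymphoid, endothelial and hepatocyte lists summed levels alone are given, and of the neighbours the nearest tested one. The labels name no molecular identifiers, so binomial intervals cover counting error only.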

Additional observations from a re-analysis of the deposited data

How the results depend on the processing

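No paired analysis was possible because WT and KO libraries share no replicate number. The receptor genes kept their direction under every alternative run on gene counts except Il3ra, whose log2 change ran from -0.13 to 0.23 without each library in turn. In introns Il3ra ran from -0.44 to 0.10, and in exonic against intronic change Il3ra ran from -0.21 to 0.66, Csf2ra from -0.30 to 0.24 and Il5ra from -0.73 to 0.12, all without passing. Epor ran from -0.16 to 0.0016, Ncf4 from -0.28 to 0.093 and Lifr from -0.73 to 0.83, with 0.23 for Lifr without both libraries of highest hepatocyte level. The share of Csf2rb2 in the pair differed by 22.5 to 25.0 percentage points without each library and by 32.1 in intron counts.

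Counts of called genes rested on single libraries and on the tool, and the cause was not tested. In gene counts 276 were higher and 219 lower; DESeq2 gave 663 and 645, leaving out both libraries of highest hepatocyte level gave 580 and 838, and leaving out 1 library gave 5 to 483 and 7 to 1012. In intron counts 28 were higher and 57 lower; DESeq2 gave 123 and 217, leaving out both libraries gave 1 and 0, and leaving out 1 gave 4 to 27 and 6 to 121. In exonic against intronic change, 0 and 0 became 32 and 3 by DESeq2, 9 and 0 with no term per sample, and 0 to 44 and 0 to 106 without 1 library. Of 13 named genes past the threshold that are not receptor genes, 13 kept the call with WT replicate 2 left out, 1 with any of WT replicates 1 and 3 and KO replicate 4, 0 with KO replicate 5 and 4 with KO replicate 6, and 9 with no filter. Il5ra, at 20 to 47 counts per library, is limited by depth.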
